A study of Mus musculus with 11 samples.

Results

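RNA of 266-6 cells, a mouse pancreatic acinar line, was sequenced in 11 libraries, and 6 of these, all from cells given EGF, are described here. They were chosen by their labels alone. The siArid1a_EGF group (n = 3) received siRNAs against Arid1a (25 nM) and the siCtrl_EGF group (n = 3) the non-targeting siRNA NT5, for which no concentration is recorded. In both groups the siRNAs acted for 48 h, serum was withdrawn overnight, and EGF (40 ng/ml) was present for 8 h. The other 5 libraries, siArid1a (n = 3) and siCtrl (n = 2), came from cells with the same siRNAs that were given the BSA vehicle (0.1%) for 8 h. An siRNA lowers a transcript and does not delete the gene, all cells were of 1 line, and no label says that replicates were separate cultures. The p-values then measure only the spread between these libraries, which may be technical. The comparison asks which transcripts differ with the Arid1a siRNAs while EGF signalling is on. NT5 was the only control siRNA, and no group had Arid1a restored. Effects through Arid1a and other effects of these siRNAs therefore cannot be told apart, which holds for every change below.

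ARID1A binds DNA as part of BAF, a SWI/SNF complex that uses ATP to move nucleosomes and open enhancers, and its gene is often inactivated in pancreatic cancer. EGF binds the EGF receptor and activates RAS and the kinase cascade that ends in ERK, whose targets include ETS and AP-1 transcription factors as well as the phosphatases and adaptors that shut the cascade off. In the pancreas this signalling takes part in acinar-to-ductal metaplasia, in which acinar cells lose enzyme and acinar factor expression and gain ductal traits.

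Levels are CPM, read counts relative to the library total, scaled between libraries by TMM, given for each library or as mean ± SD over the 3 libraries of a group. CPM does not account for transcript length, so levels are compared between groups and not between genes. Changes are log2 fold changes of siArid1a_EGF over siCtrl_EGF ± SE, tested with edgeR's quasi-likelihood test. The SE is not given by that test and was derived as the absolute log2 change over the square root of its F statistic. Genes count as called where the p adjusted by Benjamini and Hochberg over all 13343 tested genes was under 0.05. Depth was 11947581 to 14143225 counted reads in siArid1a_EGF and 13547278 to 16796787 in siCtrl_EGF. The first 2 principal components placed the 4 groups apart. On the third, with 6.38% of the variance, replicate 2 of both EGF groups lay on the other side of 0 from replicates 1 and 3. Without EGF, siArid1a replicate 3 and siCtrl replicate 1 lay on the same side as these 2 libraries. Counts of called list members are therefore also given without replicate 2 of both EGF groups where they moved by more than 1.5 times. Acinar genes were read at unlike levels. Ctrb1, which encodes a chymotrypsinogen, stood at 11901 ± 782 CPM in siArid1a_EGF and 11933 ± 612 CPM in siCtrl_EGF. The acinar factor Ptf1a was read in every library. Of 36 acinar enzyme and secretory product genes in the files, only 26 had enough reads to be tested. The acinar lipase gene Cel stood at 4.46 to 7.90 CPM in siCtrl_EGF. The islet hormone genes Ins1, Ins2, Gcg and Sst, the T-cell gene Cd3e and the endothelial gene Cdh5 had no read in these 6 libraries. Other markers from the same lists were read in all 6. These include the islet genes Chga (794 to 1158 CPM) and Ppy (0.493 to 2.38 CPM). The fibroblast and stellate cell gene Pdgfrb stood at 287 to 320 CPM and the endothelial gene Tek at 37.0 to 52.3 CPM.

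Arid1a itself was read at 145, 122 and 152 CPM in siArid1a_EGF libraries, against 308, 263 and 300.2 CPM in siCtrl_EGF libraries. The groups did not overlap, and the transcript was 2.08-fold lower (log2 -1.06 ± 0.12, edgeR adjusted p = 2.85e-05). Its paralog Arid1b, which takes its place in alternative BAF complexes, stood at 116, 98.1 and 112 CPM against 115, 99.0 and 111 CPM in siCtrl_EGF. The ATPase gene Smarca4 stood at 400.0, 391 and 398 CPM, against 395, 390.0 and 402 CPM in siCtrl_EGF, and the PBAF subunit gene Arid2 at 224, 171 and 208 CPM, against 223, 199 and 214 CPM. These 3 genes overlapped between the groups and were not called (log2 0.0038 ± 0.09, 0.0024 ± 0.06 and -0.08 ± 0.12, edgeR adjusted p = 0.977, 0.977 and 0.618). In a fit of the 6 libraries with the replicate number as a block, Arid2 was called (log2 -0.08, edgeR adjusted p = 0.0345).

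Among 26 tested SWI/SNF subunit genes, Arid1a included, 5 rose and 8 fell, with a median log2 change of -0.04. Over all genes tested, 23.7% rose and 23.2% fell (46.9% called), with a median of 0.00041. Dpf2, whose product reads histone acetylation in BAF, fell to 61.3 ± 2.37 CPM, against 96.0 ± 4.53 CPM in siCtrl_EGF (log2 -0.65). Bcl7a, another BAF subunit gene, fell with a log2 change of -0.39. The rises included Smarcd3 (log2 0.80) and Actl6b, the neuronal actin-like subunit gene, which stood at 5.00, 4.75 and 4.85 CPM in siArid1a_EGF and 1.96, 1.73 and 1.84 CPM in siCtrl_EGF (log2 1.40 ± 0.18). The 13 subunit genes that were not called include Pbrm1, Brd7, Brd9, Smarcb1, Smarce1 and Smarca2. With the replicate number as a block in a fit of the 6 libraries, 8 subunit genes were higher in place of 5.

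Polycomb proteins and acetyltransferases act on the same nucleosomes, often against or with SWI/SNF. Of 29 tested genes of this kind, 7 rose (24.1%) and 6 fell (20.7%), near the 23.7% and 23.2% of all genes. Their median log2 change was 0.0025. Suz12 and Ezh2, core genes of the Polycomb repressive complex PRC2, fell to 126 ± 5.57 and 141 ± 4.46 CPM in siArid1a_EGF, against 216 ± 7.41 and 189.7 ± 13.1 CPM in siCtrl_EGF (log2 -0.78 and -0.43). The PRC1 gene Cbx2 fell as well (log2 -0.61). Ezh1, which encodes the other methyltransferase of PRC2, and the PRC1 gene Ring1 rose (log2 0.50 and 0.58). The acetyltransferase gene Crebbp was not called (log2 0.16). The rises numbered 4 without siArid1a_EGF replicate 1, without siArid1a_EGF replicate 3 or without siCtrl_EGF replicate 2, and the replicate block over the 6 libraries gave 11 rises and 11 falls.

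Across the transcriptome 6261 of 13343 genes were called, 3164 higher and 3097 lower. Most of these changes were small, with a median absolute log2 change of 0.44 among called genes, and 761 genes (5.7% of those tested) were called and changed more than 2-fold, 507 of them higher (3.8%) and 254 lower (1.9%). The 3 libraries of siArid1a_EGF lay all above or all below the 3 of siCtrl_EGF for 57.6% of genes tested. In a fit of these 6 libraries alone with the replicate number as a block, which left 2 residual degrees of freedom, 8362 genes were called. Its p-values could be extremely small. That of Arid1a was 4.80e-83, against 1.42e-06 in the same 6 libraries without the block (edgeR adjusted p). A small p-value of the block fit is therefore not read as stronger evidence. Of the genes given in the text as not called, that fit also called B2m, Brd7, Brd9, Ccnb1, Cd68, Cdk1, Crebbp, Fasn, Fdps, Foxa2, H2-D1, Hnf4a, Jak1, Jun, Nfkbia, Pbrm1, Smarca2, Smarcb1, Sqstm1, Tcf12, Try5 and Xbp1 (edgeR adjusted p = 9.70e-13 to 0.0483). In bulk RNA, fewer cells of a kind and less RNA per cell cannot be told apart, and this holds for every level below.

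Among genes whose log2 CPM averaged at least 3, the largest rise was that of Cel, which encodes carboxyl ester lipase, a bile salt-activated enzyme that acinar cells secrete. It stood at 34.02, 39.0 and 29.6 CPM in siArid1a_EGF libraries, against 5.51, 7.90 and 4.46 CPM in siCtrl_EGF libraries, 5.66-fold higher (log2 2.50 ± 0.20, edgeR adjusted p = 6.74e-07). Spon2, which encodes a secreted matrix protein, stood at 24.9, 27.3 and 24.5 CPM, against 5.72, 4.87 and 5.07 CPM in siCtrl_EGF (log2 2.29 ± 0.10). Creb3l3, which encodes a membrane-bound transcription factor known in liver for lipid metabolism genes, stood at 41.3, 48.0 and 40.1 CPM, against 11.95, 12.2 and 9.38 CPM (log2 1.94 ± 0.15). In all 3 the lowest siArid1a_EGF library was far above the highest siCtrl_EGF library. The other rises of this rank were those of Stac, Irf7, Syne1, Rnf112, Lhfpl5, Hmha1, Sgk2, Slc7a4, Usp18, Tnfsf10 and Plxna4, with log2 changes of 1.74 to 2.16. Sgk2 encodes a kinase of the SGK family and stood at 56.8, 60.4 and 53.9 CPM, against 15.2, 18.3 and 12.9 CPM in siCtrl_EGF. Tnfsf10 encodes TRAIL, a ligand that can start apoptosis, and stood at 46.3, 36.9 and 39.5 CPM, against 12.2, 12.3 and 10.9 CPM in siCtrl_EGF (log2 1.79 ± 0.12). The rise of Syne1 (log2 1.91) rests on the count files, since the authors' FPKM table lists the gene at 0 in the siArid1a_EGF columns and at 0 to 0.00971 FPKM in the siCtrl_EGF columns.

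At the same minimum level, the largest fall was that of Wipi1, whose product binds the phosphoinositide on growing autophagosomes. It stood at 15.3, 11.8 and 15.9 CPM in siArid1a_EGF libraries, against 69.1, 57.4 and 67.5 CPM in siCtrl_EGF libraries, 4.52-fold lower (log2 -2.18 ± 0.12, edgeR adjusted p = 9.45e-09). Atg5, which is needed to attach LC3 to autophagosome membranes, stood at 23.7, 26.3 and 27.1 CPM, against 86.3, 92.1 and 84.6 CPM in siCtrl_EGF (log2 -1.77 ± 0.08). The tight junction gene Cldn1 stood at 33.95, 29.5 and 30.0 CPM, against 104, 95.7 and 100.1 CPM (log2 -1.68 ± 0.07, edgeR adjusted p = 1.88e-09). Med28, a Mediator subunit gene, stood at 65.4, 77.5 and 72.5 CPM, against 221, 251 and 223 CPM in siCtrl_EGF (log2 -1.69 ± 0.09). The groups of each of these 4 genes were far apart relative to the spread within them. Fgfr2, a receptor for fibroblast growth factors, fell to 9.27 ± 0.589 CPM in siArid1a_EGF, against 27.2 ± 1.49 CPM in siCtrl_EGF (log2 -1.55). Sirt2, which encodes a deacetylase, fell to 18.2 ± 1.70 CPM, against 55.9 ± 4.98 CPM. Further falls of this rank were those of Prss3, Kctd14, Trib2, Ftl1, a ferritin light chain gene, Car14, Stc1 and Tmeff1, with log2 changes of -1.91 to -1.53. Prss3 and Ftl1 belong to families of near-identical copies, and how reads were divided among the copies is not given in the sources used here.

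**Figure D1:**
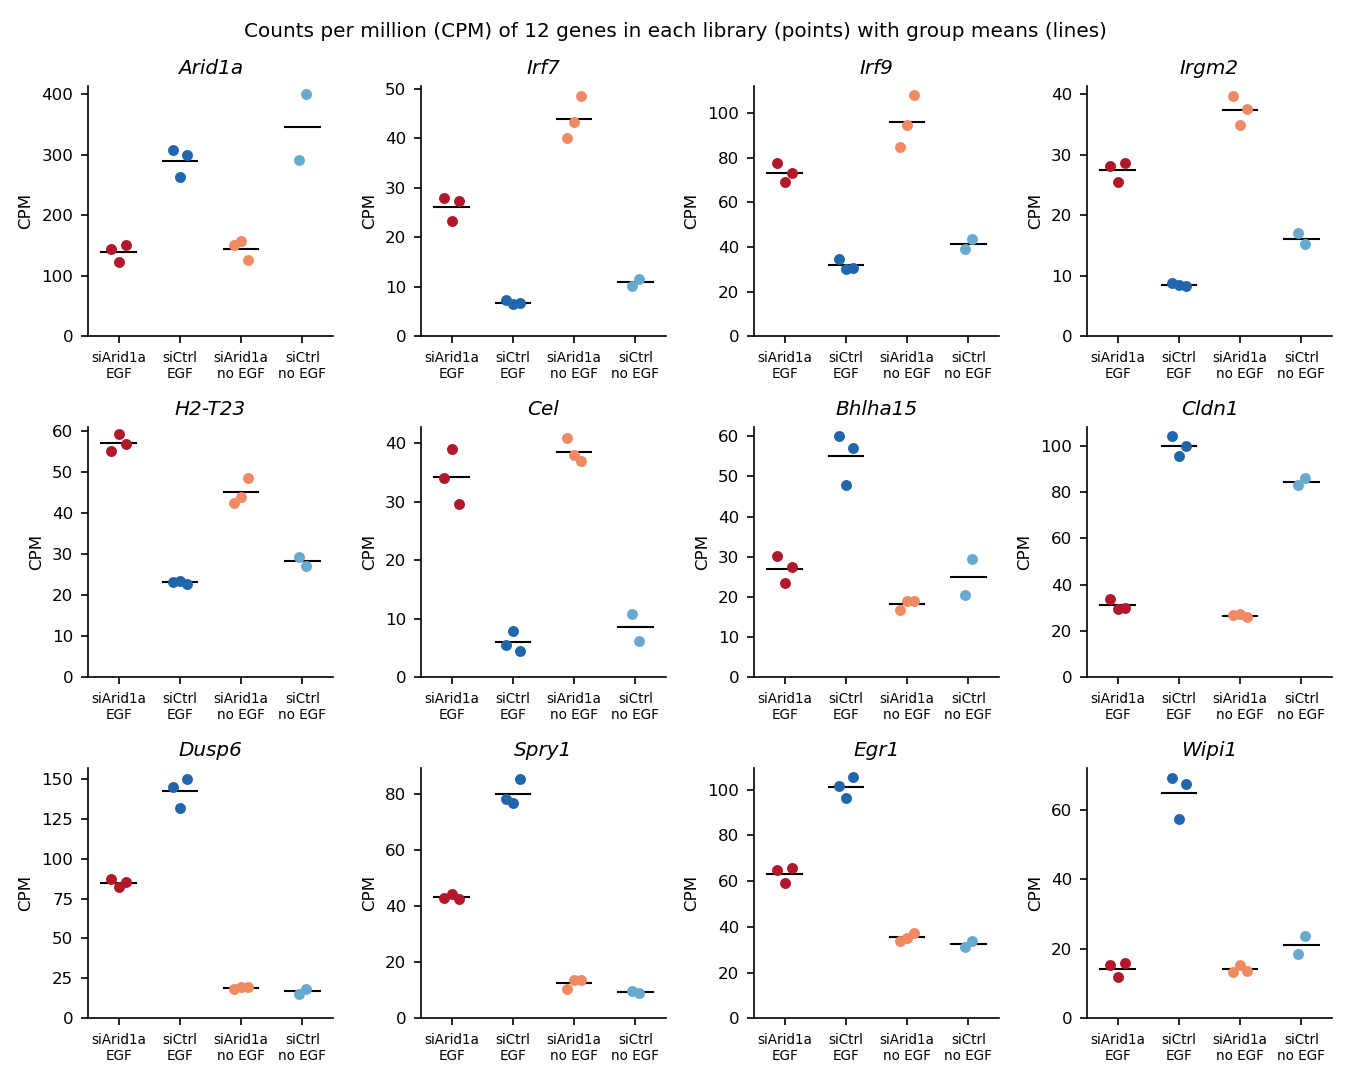
Level in CPM (y axes, from 0) of 12 genes in each of the 11 libraries (points) with group means (lines), for siArid1a_EGF, siCtrl_EGF, siArid1a and siCtrl. Arid1a, Bhlha15, Cldn1, Dusp6, Spry1, Egr1 and Wipi1 lay lower in every siArid1a_EGF library than in any siCtrl_EGF library, and Irf7, Irf9, Irgm2, H2-T23 and Cel lay higher.

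Genes of the interferon response and of class I antigen presentation had the highest shares of rises among the lists with at least 10 tested members. Interferons signal through JAK kinases to STAT factors, which join IRF9 and bind the interferon-stimulated response element, and the induced genes encode antiviral effectors and the machinery of antigen presentation. Of 30 tested genes for interferon signalling and nucleic acid sensors, 20 rose (66.7%, against 23.7% of all genes) and 2 fell, with a median log2 change of 0.41. Of 41 tested interferon-stimulated effector genes, 33 rose (80.5%) and 1 fell, with a median of 0.94. Of 20 tested genes of MHC class I presentation, 15 rose (75.0%) and none fell, with a median of 0.70. Without replicate 2 of both EGF groups, 16, 28 and 14 members of the 3 lists rose. Immune cell markers summed to 8.36 to 9.37 CPM in siArid1a_EGF libraries and 6.42 to 7.68 CPM in siCtrl_EGF libraries, nearly all of it Cd68, the 1 tested marker of 8, which was not called (log2 0.31, edgeR adjusted p = 0.0516). Their part in these rises was not tested, and Cd3e and Emr1 had no read in these libraries.

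Among the signalling genes, Irf7, the transcription factor that amplifies type I interferon production, stood at 27.96, 23.3 and 27.3 CPM in siArid1a_EGF libraries, against 7.32, 6.48 and 6.69 CPM in siCtrl_EGF libraries (log2 1.94 ± 0.11, edgeR adjusted p = 1.27e-08). Stat2, which encodes a factor activated by the type I receptor, stood at 119, 114 and 125 CPM, against 57.6, 62.4 and 61.7 CPM in siCtrl_EGF (log2 0.98 ± 0.06). Irf9, whose product is its DNA-binding partner, stood at 73.4 ± 4.34 CPM in siArid1a_EGF and 31.8 ± 2.40 CPM in siCtrl_EGF (log2 1.21). No library of one group reached the range of the other for these 3 genes. Irf1 and Usp18, which encode a transcription factor and an inhibitor of the type I receptor, rose as well (log2 0.74 and 1.81). The RNA sensor genes Ddx58 and Ifih1, which encode RIG-I and MDA5, rose with log2 changes of 1.06 and 1.08. The receptor genes rose by less, with log2 changes of 0.22 for Ifnar1, 0.47 for Ifngr1 and 0.37 for Ifngr2. The 2 falls were those of Tmem173, which encodes STING, and Irf5 (log2 -0.68 and -1.37). The 8 members not called included Jak1, Irf8, Mavs, Tlr3 and Dhx58. Reads of 19 listed interferon ligand genes, looked up after the other values were seen, summed to 7, 3 and 6 in the siArid1a_EGF libraries and to 1 in each siCtrl_EGF library, and Ifnz gave 6, 2 and 5 of these reads in siArid1a_EGF and each of those in siCtrl_EGF. Without EGF the sums were 1, 1 and 4 in siArid1a and 6 and 2 in siCtrl, the other order. Ifnb1 had no read in the 11 libraries.

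The effector genes covered several antiviral functions. Irgm2, which encodes an immunity-related GTPase, stood at 28.2, 25.6 and 28.7 CPM in siArid1a_EGF libraries, against 8.84, 8.51 and 8.30 CPM in siCtrl_EGF libraries (log2 1.68 ± 0.09, edgeR adjusted p = 9.45e-09). Isg15, which encodes a ubiquitin-like protein, stood at 8.95, 8.56 and 10.0 CPM, against 2.32, 3.45 and 3.23 CPM in siCtrl_EGF (log2 1.60 ± 0.19), and Uba7, the enzyme that activates ISG15, rose too (log2 1.63). Ifit1, which binds viral RNA, stood at 10.3 ± 0.568 CPM in siArid1a_EGF and 2.31 ± 0.596 CPM in siCtrl_EGF (log2 2.17). All 3 were higher in every siArid1a_EGF library. Other rises were those of Lgals3bp, Isg20, Igtp and Parp14 (log2 0.94, 1.72, 1.35 and 1.67), of the GTPase genes Mx1, Mx2 and Gbp3 (log2 1.52, 1.70 and 1.79) and of the oligoadenylate synthetase genes Oas1a and Oasl2 (log2 1.10 and 1.44). Herc6 fell (log2 -0.30, edgeR adjusted p = 0.0261) but was not called without siArid1a_EGF replicate 2, siCtrl_EGF replicate 1, siCtrl_EGF replicate 3 or replicate 2 of both groups (edgeR adjusted p = 0.134, 0.0812, 0.0516 and 0.163). The 7 members not called included Parp12, Oas3, Oasl1, Gbp2, Ifitm2 and Ifitm3. The Ifit, Oas, Gbp, Mx, Apol9 and H2 genes have close copies, and their reads are uncertain between copies.

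The antigen presentation genes that rose took in peptide cutting, transport, loading and the heavy chain. Tapbp, which encodes tapasin, the bridge between the peptide transporter and class I molecules, stood at 150.03, 155 and 143 CPM in siArid1a_EGF libraries, against 64.8, 71.3 and 64.3 CPM in siCtrl_EGF libraries (log2 1.16 ± 0.06). H2-T23, a non-classical class I gene, stood at 55.1, 59.2 and 56.9 CPM, against 23.2, 23.5 and 22.8 CPM in siCtrl_EGF (log2 1.30 ± 0.07). The transporter genes Tap1 and Tap2 rose (log2 0.91 and 0.87), as did the immunoproteasome genes Psmb8, Psmb9 and Psmb10 (log2 0.90, 1.01 and 0.59) and the proteasome activator gene Psme1 (log2 0.70). The classical heavy chain gene H2-K1 rose by 0.32 on the log2 scale, while H2-D1 and the light chain gene B2m, at log2 0.19 and 0.13, were not called. Among NF-kB factors and targets, another inflammatory group, 5 of 17 tested genes rose (29.4%, against 23.7% of all genes) and none fell. Their median log2 change was 0.24. The rises were those of Rela, Nfkb1, Relb, Bcl3 and Tnip1 (log2 0.51, 0.28, 0.32, 0.63 and 0.19), the first 3 being NF-kB subunit genes. The target genes Cxcl10, Icam1, Tnfaip3 and Nfkbia were not called. Relb was not called without siArid1a_EGF replicate 2, siCtrl_EGF replicate 1 or siCtrl_EGF replicate 3 (edgeR adjusted p = 0.0908, 0.0863 and 0.0964), nor Tnip1 without siCtrl_EGF replicate 1 (edgeR adjusted p = 0.0611).

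**Figure D2:**
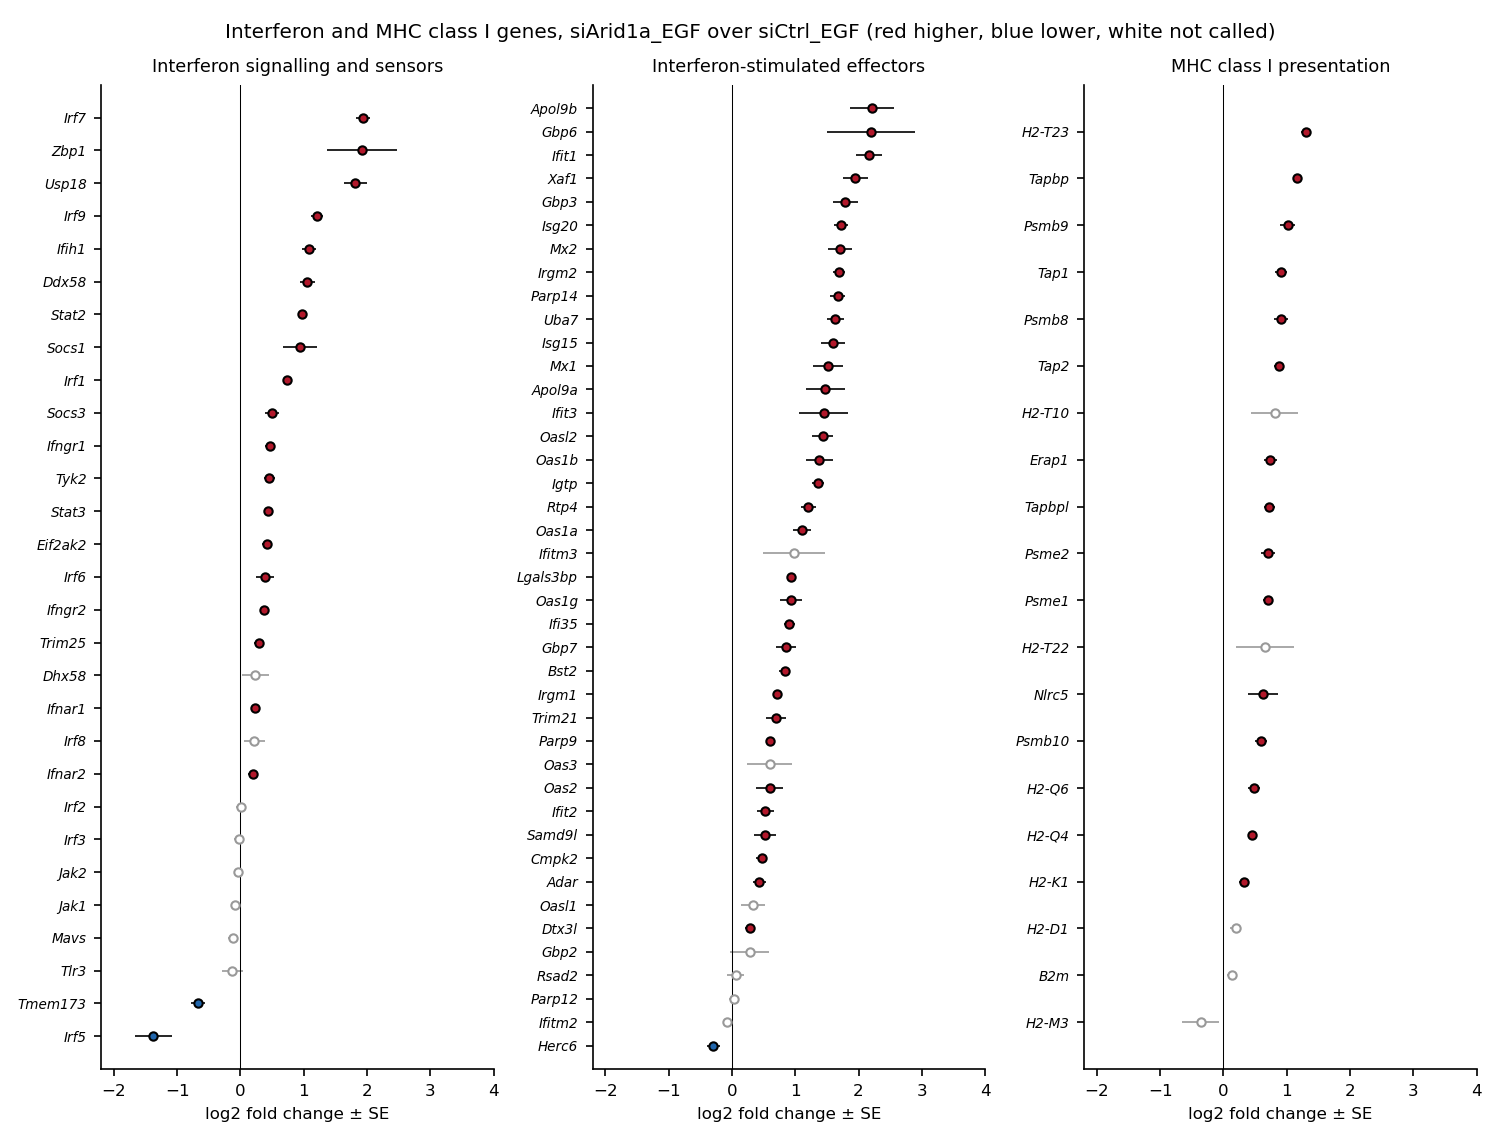
Log2 fold change of siArid1a_EGF over siCtrl_EGF (x axes, points with SE bars) for the tested members of the lists for interferon signalling, interferon-stimulated effectors and MHC class I presentation. Red points were called higher, blue points lower, and white points were not called, and 1 signalling gene that is not reported here is not drawn; 20 of 30, 33 of 41 and 15 of 20 members were higher.

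The promoters of 4 of these genes are shown because their letters match the searched core of the interferon-stimulated response element, in different numbers and positions. The windows run from 250 bases before to 50 bases after the RefSeq gene start in build GRCm38.p6, written 5′ to 3′ on the gene's strand, and capitals mark GAAANNGAAA, searched on both strands. The genes are Isg15 (chr4:156200769-156201068, minus strand), Irgm2 (chr11:58214727-58215026, plus strand), Stat2 (chr10:128270248-128270547, plus strand) and H2-T23 (chr17:36032652-36032951, minus strand).
Isg15: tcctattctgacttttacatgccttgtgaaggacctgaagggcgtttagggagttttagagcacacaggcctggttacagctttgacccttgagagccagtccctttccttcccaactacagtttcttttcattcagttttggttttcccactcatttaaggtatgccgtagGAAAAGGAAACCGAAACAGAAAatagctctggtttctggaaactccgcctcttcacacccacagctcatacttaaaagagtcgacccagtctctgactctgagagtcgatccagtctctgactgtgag
Irgm2: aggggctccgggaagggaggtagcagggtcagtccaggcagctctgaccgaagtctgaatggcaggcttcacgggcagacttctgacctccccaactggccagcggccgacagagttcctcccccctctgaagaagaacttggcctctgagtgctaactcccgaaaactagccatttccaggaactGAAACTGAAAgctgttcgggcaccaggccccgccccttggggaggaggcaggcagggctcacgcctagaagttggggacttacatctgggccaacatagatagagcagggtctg
Stat2: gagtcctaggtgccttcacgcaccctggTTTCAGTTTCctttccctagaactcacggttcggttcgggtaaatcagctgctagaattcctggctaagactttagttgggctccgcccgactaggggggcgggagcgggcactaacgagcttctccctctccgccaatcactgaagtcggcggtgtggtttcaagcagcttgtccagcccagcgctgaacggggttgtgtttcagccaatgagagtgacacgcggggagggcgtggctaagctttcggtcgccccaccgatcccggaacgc
H2-T23: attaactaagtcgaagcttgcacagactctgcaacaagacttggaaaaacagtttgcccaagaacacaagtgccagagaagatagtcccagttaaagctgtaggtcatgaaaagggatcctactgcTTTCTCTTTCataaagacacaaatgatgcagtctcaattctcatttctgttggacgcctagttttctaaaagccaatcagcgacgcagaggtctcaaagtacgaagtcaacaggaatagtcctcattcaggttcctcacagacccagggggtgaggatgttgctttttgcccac
Isg15 held 3 overlapping matches, whose first bases lay 78, 72 and 66 bases before the start. The window of Irgm2 held 1 match 64 bases before the start, and those of Stat2 and H2-T23 held 1 match each on the other strand, with their first printed bases 222 and 124 bases before the start. RefSeq windows could be matched by symbol for 53 of the 68 members of the 3 lists that rose, and 22 of these (41.5%) held the motif, as did 30 of the 73 windowed members among all 91 tested (41.1%). Counted by gene in the same way, 323 of 9484 tested genes with a window (3.41%) held it, and 97 of the 2278 called higher (4.26%). Of all 32851 single windows, tested genes or not, 1131 (3.44%) held it. A match describes the letters of the window and no more.

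EGF acts through ERK, which induces inhibitors of its own pathway and ETS factors. Of 28 tested ERK feedback and ETS genes, 14 fell and 4 rose, against 23.2% lower and 23.7% higher among all genes, with a median log2 change of -0.18. Spry1, which encodes a Sprouty inhibitor of receptor tyrosine kinase signalling, stood at 43.1, 44.3 and 42.5 CPM in siArid1a_EGF libraries, against 78.2, 76.7 and 85.6 CPM in siCtrl_EGF libraries (log2 -0.89 ± 0.08, edgeR adjusted p = 6.89e-07). Dusp6, the cytoplasmic phosphatase of ERK, stood at 86.9, 82.2 and 85.4 CPM, against 145, 132 and 149.97 CPM in siCtrl_EGF (log2 -0.74 ± 0.07, edgeR adjusted p = 6.10e-07). Etv4, a PEA3-family ETS factor, stood at 54.8, 51.8 and 56.0 CPM, against 88.0, 86.1 and 97.9 CPM in siCtrl_EGF (log2 -0.74 ± 0.09). The 3 siArid1a_EGF libraries of each gene were close together and all below those of siCtrl_EGF. Spry2 fell with a log2 change of -0.55, Phlda1 with -0.66, the nuclear ERK phosphatase genes Dusp4 and Dusp5 with -0.80 and -0.76, Etv5 with -0.41 and Errfi1, an inhibitor of the EGF receptor, with -0.20. The rises were those of Dusp8 and Dusp10, phosphatases that act mainly on stress-activated kinases, of Dusp1 and of the cytokine gene Lif (log2 1.07, 0.57, 0.39 and 0.75). Dusp1 was not called without siArid1a_EGF replicate 2 (edgeR adjusted p = 0.0502), and Dusp10 not without siArid1a_EGF replicates 2 or 3 or siCtrl_EGF replicates 2 or 3 (edgeR adjusted p = 0.0694, 0.0737, 0.0927 and 0.111). Errfi1 was not called without siArid1a_EGF replicates 2 or 3 or siCtrl_EGF replicates 1 or 3 (edgeR adjusted p = 0.0761, 0.0515, 0.07 and 0.0999). Without replicate 2 of both EGF groups, 12 members fell and 2 rose.

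Without EGF, Spry1 stood at 10.6, 13.7 and 13.7 CPM in siArid1a, against 9.71 and 8.88 CPM in siCtrl (log2 0.45 ± 0.12, edgeR adjusted p = 0.00774). Dusp6 stood at 18.6, 19.4 and 19.4 CPM in siArid1a, against 15.4 and 18.3 CPM in siCtrl (log2 0.19 ± 0.09, edgeR adjusted p = 0.121). Etv4 stood at 6.53, 8.29 and 8.09 CPM in siArid1a, against 5.06 and 7.31 CPM in siCtrl (log2 0.35 ± 0.16). No siArid1a library lay below both siCtrl libraries for these 3 genes, and all levels were several times lower than in the libraries with EGF. Of the 28 members, 8 rose and 7 fell without EGF, with a median of 0.18. The share called over all genes in that comparison was 38.9%, with 18.8% higher and 20.1% lower. The difference between the siRNA effects with and without EGF was called for 7 members, all of them more negative with EGF, namely Spry1, Dusp6, Etv4, Phlda1, Spry2, Etv5 and Errfi1 (differences of -1.34, -0.94, -1.09, -0.69, -0.69, -0.79 and -0.59 on the log2 scale, edgeR interaction, adjusted p = 0.000697, 0.00149, 0.0102, 0.00129, 0.00128, 0.0221 and 0.012). The share over all genes was 0.944%. The list was chosen with earlier results of these data known, so its count is a description and no test against that share. Without siCtrl replicate 1, Etv4, Etv5 and Errfi1 were not called (differences of -0.82, -0.62 and -0.54, adjusted p = 0.0717, 0.127 and 0.0752). Etv5 was not called without siCtrl_EGF replicates 1 or 3 or siArid1a replicates 1 or 2 (adjusted p = 0.0756, 0.0728, 0.0869 and 0.0809).

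**Figure D3:**
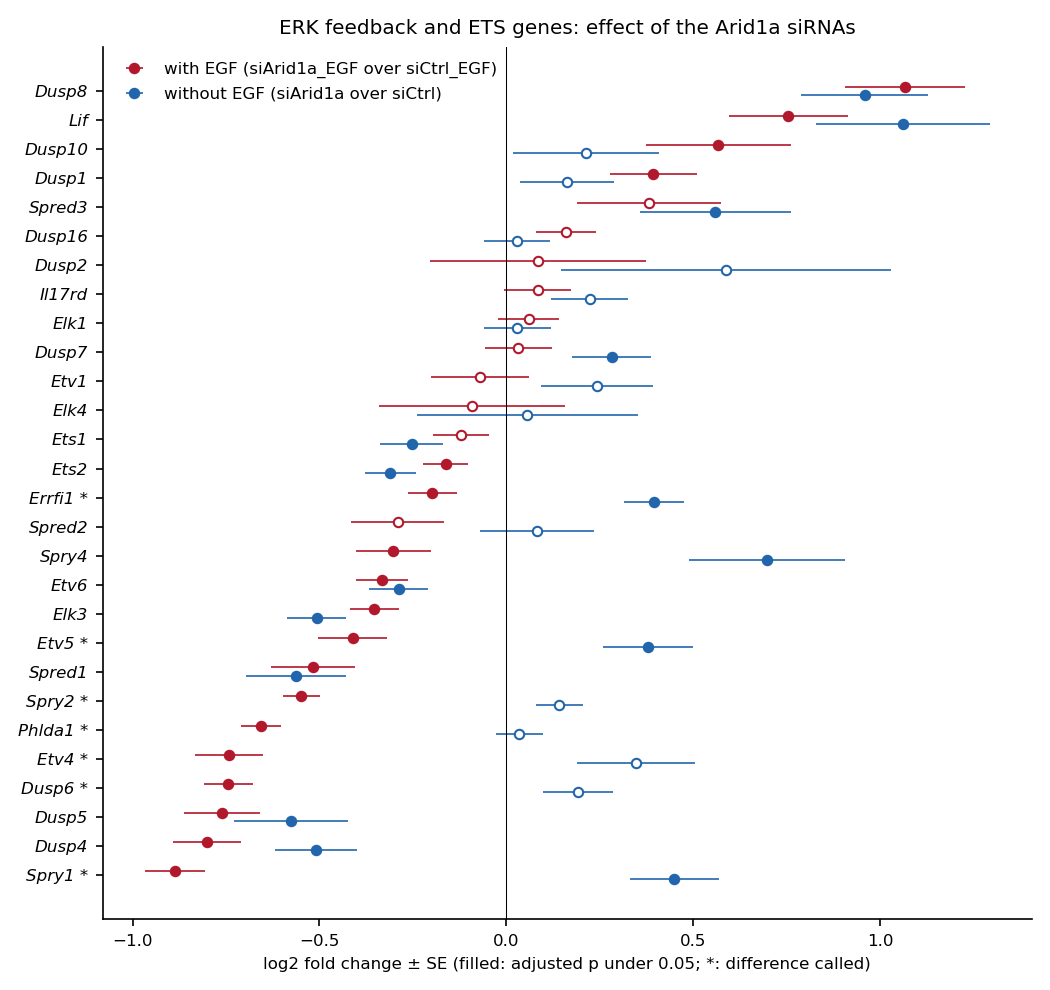
Log2 fold change of the Arid1a siRNAs over control siRNA (x axis, points with SE bars) for the 28 tested ERK feedback and ETS genes, with EGF (red) and without EGF (blue). Filled points were called and asterisks mark the 7 members whose difference was called; each of those 7 lay below 0 with EGF and above 0 without.

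Immediate early genes include the first transcription factors induced by ERK and serum. Of 29 tested members 5 rose (17.2%) and 7 fell (24.1%), against 23.7% higher and 23.2% lower among all genes, with a median log2 change of 0.06. Egr1, a zinc finger factor and direct target of the ERK substrate ELK1, stood at 64.7, 59.2 and 65.8 CPM in siArid1a_EGF libraries, against 101.4, 96.3 and 106 CPM in siCtrl_EGF libraries (log2 -0.68 ± 0.07, edgeR adjusted p = 1.38e-06). Myc fell with a log2 change of -0.48 and Srf, the serum response factor, with -0.26. The rises were those of Klf2, Btg2, Fosb, Fos and Ier5 (log2 0.82, 0.30, 0.74, 0.40 and 0.23). Fos was not called without siCtrl_EGF replicate 2 (edgeR adjusted p = 0.0557), and Ier5 not without siArid1a_EGF replicate 2 or siCtrl_EGF replicates 1 or 2 (edgeR adjusted p = 0.106, 0.081 and 0.0511). Without replicate 2 of both groups 2 members rose. The 17 members not called included Jun, Jund and Atf3. Maff, which encodes a small MAF protein, was not called with EGF (log2 0.06) and rose without EGF (log2 0.99), a difference of -0.93 ± 0.16 (edgeR interaction, adjusted p = 0.0105). That difference was not called without siCtrl replicate 1 (adjusted p = 0.0761).

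The cascade from receptor to ERK was covered by its own list. Of 32 tested genes of the EGF receptor family and the RAS-ERK core, 14 fell (43.8%) and 4 rose (12.5%). Over all genes 23.2% fell and 23.7% rose. The list had a median log2 change of -0.22. The falls numbered 9 without siArid1a_EGF replicate 2, siCtrl_EGF replicate 3 or replicate 2 of both groups, and the rises 2 without any 1 siCtrl_EGF replicate, without replicate 2 of both groups or without the filter. Nras stood at 59.2, 60.0 and 62.6 CPM in siArid1a_EGF libraries, against 131, 136 and 141 CPM in siCtrl_EGF libraries (log2 -1.17 ± 0.06, edgeR adjusted p = 4.33e-09). Mapk3, which encodes ERK1, stood at 122, 129.7 and 120.0 CPM, against 247, 244 and 246 CPM in siCtrl_EGF (log2 -0.99 ± 0.05). The ligand gene Tgfa stood at 5.64, 5.26 and 5.44 CPM, against 14.4, 10.2 and 13.4 CPM (log2 -1.21 ± 0.15). Both Nras and Mapk3 stood in siArid1a_EGF near the middle of the distance between 0 and the siCtrl_EGF level, with no overlap. Among receptor genes, Erbb3 stood at 9.23, 6.22 and 9.79 CPM, against 2.17, 2.71 and 2.77 CPM in siCtrl_EGF (log2 1.71 ± 0.29), and Lrig1, whose product promotes receptor degradation, rose (log2 0.71). The other rises, of Map2k2 and Rps6ka1, were small (log2 0.19 and 0.16) and were not called without most single libraries (edgeR adjusted p = 0.0619 to 0.221 for Map2k2 without siArid1a_EGF replicate 2 or any siCtrl_EGF replicate, and 0.0532 to 0.087 for Rps6ka1 without siArid1a_EGF replicates 1 or 3 or any siCtrl_EGF replicate). Egfr itself stood at 88.3, 69.1 and 88.3 CPM, against 115, 88.2 and 102 CPM in siCtrl_EGF; the lowest siCtrl_EGF library lay just below the 2 highest siArid1a_EGF libraries (log2 -0.31 ± 0.16, edgeR adjusted p = 0.124). Replicate 2 was the lowest library for Egfr in both groups, and Egfr was called in the fit of the 6 libraries with the replicate block (log2 -0.31, edgeR adjusted p = 9.22e-11). That fit left 2 residual degrees of freedom, and its small p-value is not read as stronger evidence.

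Of 29 genes for other receptor tyrosine kinases and their ligands, 7 were higher (24.1%) and 8 lower (27.6%), near the 23.7% and 23.2% of all genes, with a median log2 change of 0.02. Met, the receptor for hepatocyte growth factor, stood at 124, 102 and 123 CPM in siArid1a_EGF libraries, against 60.1, 54.2 and 54.96 CPM in siCtrl_EGF libraries (log2 1.05 ± 0.09). Fgfrl1, a receptor without a kinase domain, Ddr1, a collagen receptor, and the growth factor gene Igf2 fell alongside Fgfr2 (log2 -0.82, -0.40 and -0.35). NFAT factors, which calcineurin activates after calcium release and which act in metaplasia, were covered with calcineurin genes by a list of 18 members, of which 9 were higher and 5 lower (27.8%), with a median of 0.17. Nfatc3 stood at 50.9, 45.2 and 55.2 CPM, against 123, 119.6 and 124 CPM in siCtrl_EGF (log2 -1.28 ± 0.09, edgeR adjusted p = 4.46e-08). The calcineurin subunit genes Ppp3r1 and Ppp3ca and the calcium channel gene Itpr3 fell too (log2 -0.52, -0.42 and -0.87), while Rcan2, an inhibitor of calcineurin, and Nfatc2ip rose (log2 0.50 and 0.45). Nfatc1 stood at 44.4, 42.3 and 45.3 CPM, against 56.2, 47.4 and 59.6 CPM (log2 -0.30 ± 0.09, edgeR adjusted p = 0.0136) and was not called without siCtrl_EGF replicate 1 (edgeR adjusted p = 0.0513) or replicate 3 (edgeR adjusted p = 0.0734).

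Acinar cells make digestive enzymes under the control of a small set of transcription factors. Of 26 tested acinar enzyme and secretory product genes, 12 rose (46.2%, against 23.7% of all genes) and 3 fell (11.5%, against 23.2%). The median log2 change was 0.35. Beside Cel, the elastase gene Cela1 stood at 2008, 2209 and 1988 CPM in siArid1a_EGF libraries, against 1242, 1335 and 1243 CPM in siCtrl_EGF libraries (log2 0.70 ± 0.07), and Reg1, a lectin of injured pancreas, at 1268, 1315 and 1307 CPM, against 757, 785 and 831 CPM (log2 0.71 ± 0.07). The amylase gene Amy1 rose with a log2 change of 1.56. The falls were those of the trypsinogen genes Prss1 and Prss3, which share reads with close copies, and of Sycn (log2 -2.28, -1.91 and -0.85). Sycn was not called without siArid1a_EGF replicate 2 or siCtrl_EGF replicate 2 (edgeR adjusted p = 0.0524 and 0.0544). With the replicate block over the 6 libraries 6 members fell. The 11 members not called included Ctrb1, Pnlip and Try5. Cpa1, a carboxypeptidase gene, stood at 533, 557 and 539.5 CPM, against 591, 612 and 633 CPM in siCtrl_EGF (log2 -0.17 ± 0.07, edgeR adjusted p = 0.0507). Its groups did not overlap, and it was called lower under 9 of the alternative settings, among them the replicate block over the 6 libraries (edgeR adjusted p = 7.81e-08, from the fit with 2 residual degrees of freedom).

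Of 18 acinar transcription factor genes, 10 fell (55.6%, against 23.2% of all genes) and 2 rose (11.1%, against 23.7%). The median log2 change was -0.25. Bhlha15, which encodes MIST1, the factor that shapes the secretory apparatus, stood at 30.3, 23.5 and 27.3 CPM in siArid1a_EGF libraries, against 60.1, 47.7 and 57.0 CPM in siCtrl_EGF libraries (log2 -1.02 ± 0.13, edgeR adjusted p = 2.09e-05). Nr5a2, a nuclear receptor of acinar identity, stood at 150.5, 131 and 153 CPM, against 223, 187 and 220.0 CPM in siCtrl_EGF (log2 -0.54 ± 0.10). Ptf1a, which drives the enzyme genes, stood at 148, 154 and 139 CPM, against 165, 179.5 and 171 CPM (log2 -0.23 ± 0.07, edgeR adjusted p = 0.0102). Bhlha15 showed the widest gap of the 3, and the call for Ptf1a was lost without siArid1a_EGF replicate 3 (log2 -0.18, edgeR adjusted p = 0.056). Gata6 and Foxp1 fell as well (log2 -0.43 and -0.39). The rises were those of Rbpjl, the partner of PTF1A in the PTF1 complex, at 455, 458 and 449 CPM, against 276, 260.1 and 271 CPM in siCtrl_EGF (log2 0.75 ± 0.05), and of Foxa3 (log2 0.43). The 6 members not called included Xbp1, Hnf4a, Foxa2 and Tcf12.

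Ductal, metaplasia and progenitor genes gave 8 rises (26.7%) and 12 falls (40.0%) among 30 tested, with a median log2 change of -0.23. Without replicate 2 of both EGF groups 5 rose. Sox9, the factor of ducts and of metaplastic cells, stood at 52.5, 54.3 and 56.1 CPM in siArid1a_EGF libraries, against 102, 91.5 and 105 CPM in siCtrl_EGF libraries (log2 -0.87 ± 0.12, edgeR adjusted p = 3.98e-05). Pdx1, a pancreatic progenitor factor, stood at 210.2, 202 and 194 CPM, against 387, 368 and 389 CPM in siCtrl_EGF (log2 -0.92 ± 0.06, edgeR adjusted p = 1.68e-08). Onecut3 fell too (log2 -0.69), and the epithelial ETS gene Ehf, read at 0.282, 0.366 and 0.753 CPM, against 4.78, 4.26 and 5.92 CPM in siCtrl_EGF, had the lowest fold change of any gene tested (log2 -3.43 ± 0.28). Both Sox9 and Pdx1 were thus lower in every siArid1a_EGF library. Prom1, which encodes the progenitor surface protein CD133, rose to 115 ± 6.19 CPM, against 56.9 ± 8.21 CPM in siCtrl_EGF (log2 1.01), and the ductal secreted protein gene Spp1 and the simple keratin genes Krt8 and Krt18 rose (log2 0.82, 0.97 and 0.48). The duct keratin gene Krt19 was read at 1.197, 1.54 and 1.34 CPM, against 1.09, 1.05 and 0.846 CPM, and was not called (log2 0.44 ± 0.26, edgeR adjusted p = 0.209). Of 25 Notch genes, which act in the same cell fate choices, 6 were higher (24.0%) and 6 lower (24.0%), near the 23.7% and 23.2% of all genes, with a median of -0.04. Nrarp, a feedback inhibitor of Notch, Numbl, Mfng and the ligand gene Jag2 rose (log2 0.89, 1.14, 0.56 and 0.73), Lfng, a glycosyltransferase of Notch receptors, fell (log2 -0.69), and Hes1 was not called.

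Lipid genes were covered by 3 lists. Of 28 tested genes of PPAR signalling and lipid breakdown, 17 rose (60.7%) and 4 fell, with a median log2 change of 0.51. Cpt1a, the gate for fatty acids into mitochondria, stood at 116, 103 and 106 CPM in siArid1a_EGF libraries, against 47.4, 44.9 and 46.4 CPM in siCtrl_EGF libraries (log2 1.23 ± 0.06, edgeR adjusted p = 6.12e-09). Acadvl, the first dehydrogenase of very long chain oxidation, stood at 371, 401 and 369 CPM, against 199, 206 and 201 CPM in siCtrl_EGF (log2 0.91 ± 0.06). The groups of both genes were far apart. Cpt2 and the PPAR target genes Angptl4 and Plin5 rose (log2 0.67, 1.40 and 1.66), as did Ppara itself (log2 0.998). The 4 falls were those of the mitochondrial carrier gene Ucp2, the coactivator gene Ppargc1a, Pparg and Rxra (log2 -0.80, -0.89, -1.33 and -0.17). Rxra was not called without siArid1a_EGF replicates 2 or 3 or siCtrl_EGF replicates 1 or 3 (edgeR adjusted p = 0.0929, 0.0691, 0.053 and 0.0827). Of 25 cholesterol synthesis and SREBP2 target genes, 13 fell and Ebp alone rose (log2 0.22), with a median of -0.24. Cyp51 stood at 656, 639.6 and 678 CPM, against 1098, 1089 and 1177 CPM in siCtrl_EGF (log2 -0.77 ± 0.05), Mvk, mevalonate kinase, fell with a log2 change of -0.90, and Sc4mol, Hsd17b7 and Sqle fell with -0.72, -0.56 and -0.40. Fdps was not called. Ebp was not called without siCtrl_EGF replicate 1 or without replicate 2 of both groups (edgeR adjusted p = 0.061 and 0.055). Of 20 fatty acid synthesis genes, 5 rose (25.0%) and 7 fell (35.0%), against 23.7% and 23.2% of all genes, with a median of -0.0032. The desaturase genes Scd1 and Scd2 and the acyl-CoA synthetase gene Acsl4 fell (log2 -0.66, -0.35 and -0.50), Acacb and Srebf1 rose (log2 0.82 and 0.22), and Fasn was not called (log2 -0.16). The other 3 rises were those of Acss2, Mlxipl and Acly (log2 1.02, 0.37 and 0.19). Mlxipl was not called without siArid1a_EGF replicates 2 or 3 or siCtrl_EGF replicates 1 or 3 (edgeR adjusted p = 0.0534 to 0.108), and Acly not without siArid1a_EGF replicates 1 or 3 or siCtrl_EGF replicate 2 (edgeR adjusted p = 0.104, 0.0759 and 0.11). Without siArid1a_EGF replicate 3 the list had 3 rises, and without replicate 2 of both groups 4 falls.

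Cell cycle genes were listed by phase. Of 28 tested G1 cyclin, kinase, E2F and inhibitor genes, 17 fell (60.7%, against 23.2% of all genes) and 4 rose (14.3%, against 23.7%). The median log2 change was -0.27. Ccne1, cyclin E1, stood at 15.8, 14.04 and 16.8 CPM in siArid1a_EGF libraries, against 39.1, 39.4 and 40.0 CPM in siCtrl_EGF libraries (log2 -1.35 ± 0.09). Cdkn1b, which encodes the inhibitor p27, fell as well and stood at 108, 104 and 107 CPM, against 202, 204 and 209.8 CPM in siCtrl_EGF (log2 -0.95 ± 0.05, edgeR adjusted p = 4.33e-09). The falls thus took in a cyclin that drives entry into S phase and an inhibitor that opposes it. The E2F genes E2f2 and E2f8 and their partner gene Tfdp1 fell (log2 -0.72, -0.88 and -0.62). The 4 rises were those of the retinoblastoma family genes Rb1, Rbl1 and Rbl2 and of E2f1 (log2 0.31, 0.52, 0.47 and 0.16). E2f1 was not called without siArid1a_EGF replicates 1 or 2 or any 1 of the siCtrl_EGF replicates (edgeR adjusted p = 0.0663 to 0.107), and Rb1 not without siCtrl_EGF replicate 1 (edgeR adjusted p = 0.0784). Of 39 S-phase and replication genes, 17 fell (43.6%) and 5 rose (12.8%), with a median of -0.12. Rrm2 and Rrm1, the subunits of ribonucleotide reductase, fell (log2 -0.53 and -0.33), as did Orc6 and Fbxo5 (log2 -0.69 and -0.64), and the polymerase gene Pold1 and the licensing factor gene Cdt1 led the rises (log2 0.39 and 0.31). The rises numbered 3 without siCtrl_EGF replicate 1, 2 without replicate 2 of both groups and 8 with the replicate block over the 6 libraries.

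Of 36 G2/M and mitosis genes, 20 rose (55.6%, against 23.7% of all genes) and 1 fell (2.78%, against 23.2%). The median log2 change was 0.16. Kif20a, a kinesin of cytokinesis, stood at 138, 128 and 131 CPM in siArid1a_EGF libraries, against 87.7, 92.1 and 86.3 CPM in siCtrl_EGF libraries (log2 0.58 ± 0.05). Cdc20, an activator of the anaphase-promoting complex, stood at 250.3, 272 and 242 CPM, against 176, 188 and 176 CPM in siCtrl_EGF (log2 0.50 ± 0.06). Cdc25b and Prc1 rose (log2 0.52 and 0.46). The changes were small beside those of the interferon genes, and Mki67, Cdk1 and Ccnb1 were not called. Aurkb, the chromosomal passenger kinase gene, fell (log2 -0.42). Genes of Myc and ribosome biogenesis fell in 19 of 28 cases (67.9%), with a median of -0.26. Myc stood at 158, 162 and 161 CPM, against 225, 224 and 224 CPM in siCtrl_EGF (log2 -0.48 ± 0.05, edgeR adjusted p = 2.88e-06), and the snoRNP genes Nop58 and Dkc1 and Wdr43 fell with it (log2 -0.57, -0.51 and -0.46). Mycn, a paralog of Myc, rose to 5.49 ± 0.315 CPM, against 1.85 ± 0.293 CPM (log2 1.57), and the MYC antagonist gene Mxd1 rose (log2 0.43).

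**Figure D4:**
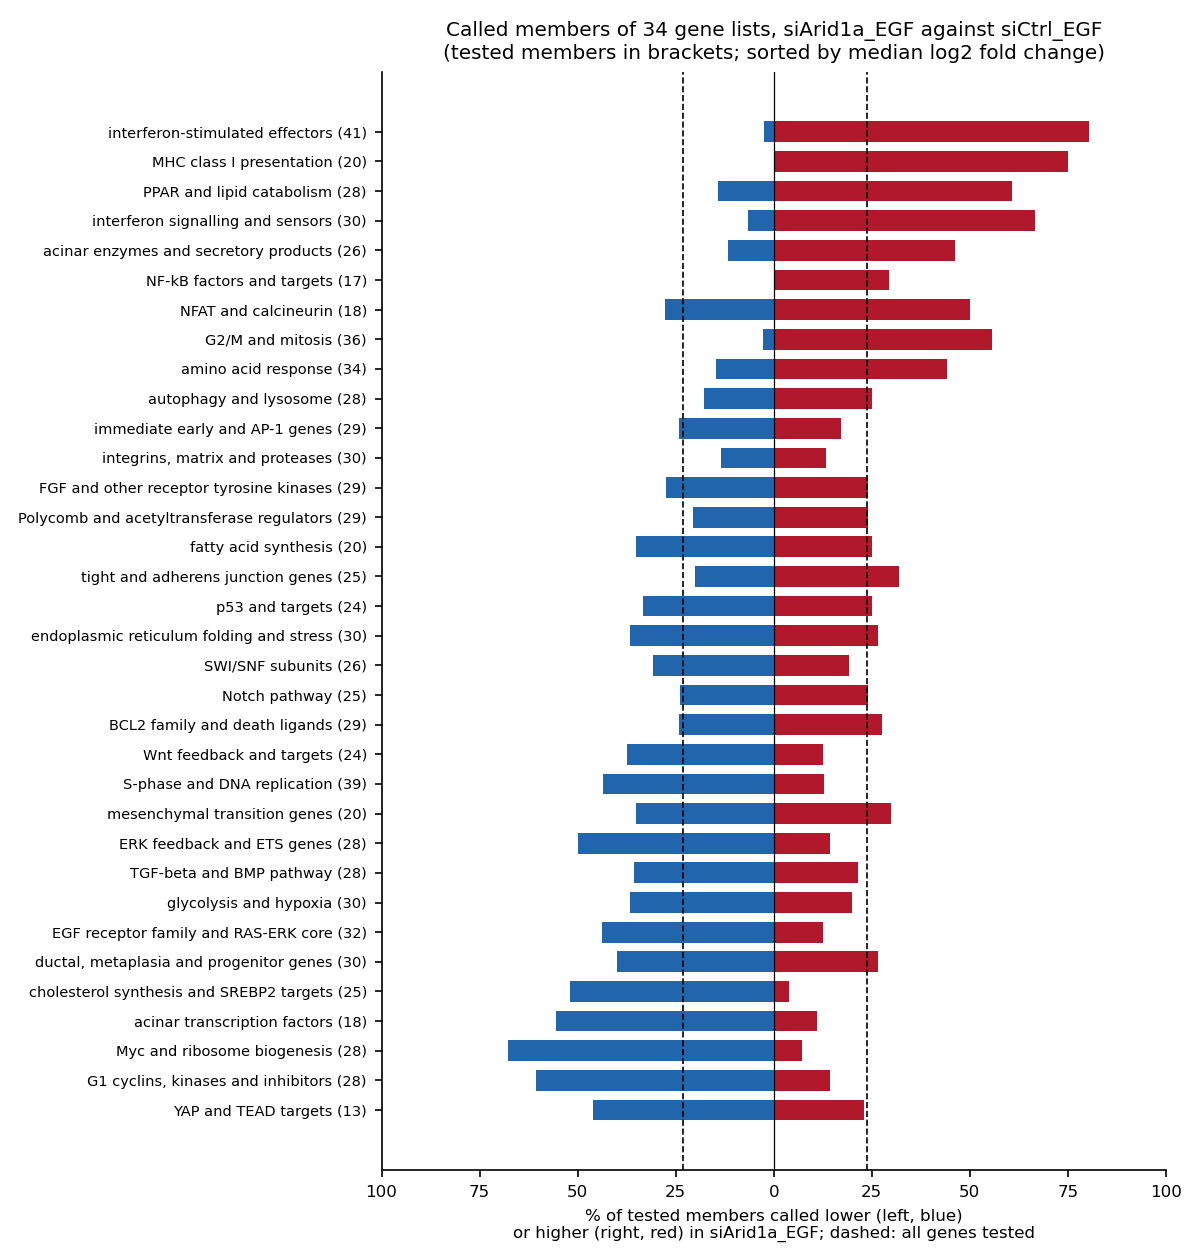
Share of tested members called lower (left, blue) and higher (right, red) in siArid1a_EGF against siCtrl_EGF for 34 gene lists, with tested members in brackets and the lists ordered by median log2 fold change. Dashed lines mark all genes tested, 23.2% lower and 23.7% higher; interferon-stimulated effectors and MHC class I presentation lie at the top, and YAP and TEAD targets, G1 genes and Myc genes at the bottom.

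Mesenchymal transition genes gave 6 rises (30.0%) and 7 falls (35.0%) among 20, against 23.7% and 23.2% of all genes. Their median log2 change was -0.15. Cdh1, E-cadherin, the adhesion protein of epithelia, stood at 718, 678 and 686 CPM in siArid1a_EGF libraries, against 366, 375 and 343 CPM in siCtrl_EGF libraries (log2 0.94 ± 0.05), and the intermediate filament gene Vim, known from mesenchymal cells, at 472, 518 and 446 CPM, against 253, 261 and 258 CPM (log2 0.90 ± 0.06). Genes of both cell states thus rose. Sparc rose (log2 0.40), and Cald1 and Tpm1, which encode actin-binding proteins, fell (log2 -1.09 and -0.53). The falls numbered 4 without siArid1a_EGF replicate 2 or siCtrl_EGF replicate 1. Among 25 tight and adherens junction genes, 8 rose and 5 fell, with a median of -0.0034. Cldn4, which encodes another tight junction claudin, stood at 0, 0.512 and 0.335 CPM, against 2.25, 2.84 and 2.15 CPM in siCtrl_EGF (log2 -3.10 ± 0.50). The connexin gene Gjb1, Cldn3 and the protocadherin genes Pcdh8 and Pcdh15 rose (log2 1.36, 0.82, 1.001 and 0.93), and the adhesion genes Ctnnd1 and F11r fell with Cldn1 (log2 -0.45 and -0.31). Of 30 integrin, matrix and protease genes 4 rose (13.3%) and 4 fell (13.3%), with a median of 0.03. With the replicate block over the 6 libraries 8 rose and 7 fell. Without siArid1a_EGF replicates 2 or 3, siCtrl_EGF replicate 2 or replicate 2 of both groups 2 of them fell. Adamts1, Itgb4 and Adam9 rose (log2 0.57, 0.53 and 0.36), and Plaur, the urokinase receptor gene, and Col4a1 fell (log2 -0.75 and -0.29).

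Pathways of development were covered by 3 lists. Among 28 TGF-beta and BMP genes 10 fell (35.7%) and 6 rose (21.4%), against 23.2% and 23.7% of all genes. Their median log2 change was -0.20. Bmpr1a, a type I BMP receptor, stood at 69.8, 65.5 and 71.7 CPM in siArid1a_EGF libraries, against 148, 134 and 146 CPM in siCtrl_EGF libraries (log2 -1.05 ± 0.06). The ligand gene Bmp7 and the BMP antagonist gene Nbl1 fell too (log2 -0.74 and -1.58), while Tgfb1 and Id4 rose (log2 0.62 and 1.25). Among 24 Wnt genes 9 fell and 3 rose, with a median of -0.11. The receptor genes Fzd6 and Fzd8, the factor gene Tcf7l2 and the scaffold gene Axin1 fell (log2 -0.99, -0.47, -0.74 and -0.32), Lgr4, Fzd1 and Fzd2 rose (log2 0.43, 0.69 and 0.43), and the target gene Axin2 was not called. Among 13 YAP and TEAD genes 6 fell and 3 rose, with a median of -0.30. Wwtr1, which encodes TAZ, stood at 14.1 ± 0.623 CPM in siArid1a_EGF and 27.2 ± 1.93 CPM in siCtrl_EGF (log2 -0.95). Tead1 and Tead2, the DNA-binding partners of YAP and TAZ, and the kinase gene Nuak2 fell (log2 -0.83, -0.61 and -0.55), and Amotl2, Tead3 and Axl rose (log2 1.25, 0.34 and 0.32).

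Stress and metabolic lists held further large single changes. Of 34 amino acid response genes, many of them targets of ATF4, 15 rose (44.1%) and 5 fell (14.7%), with a median log2 change of 0.10. Over all genes 23.7% rose and 23.2% fell. Nupr1, a stress protein gene of injured pancreas, stood at 208, 224 and 203 CPM in siArid1a_EGF libraries, against 113, 113 and 110.2 CPM in siCtrl_EGF libraries (log2 0.92 ± 0.07). Psat1 and Cbs, enzymes of serine and cysteine synthesis, rose (log2 0.50 and 0.51), and the translation repressor gene Eif4ebp1 fell to 25.3 ± 2.18 CPM, against 67.7 ± 2.77 CPM in siCtrl_EGF (log2 -1.42). Aldh18a1, of proline synthesis, fell as well (log2 -0.48), and Atf4, Asns and Chac1 were not called. The falls numbered 3 without replicate 2 of both groups. Of 30 endoplasmic reticulum genes 8 rose (26.7%, near the share of all genes) and 11 fell (36.7%), with a median of -0.04. Sel1l, of the degradation machinery, the oxidase gene Ero1lb and Eif2ak3, the sensor PERK, rose (log2 0.96, 0.97 and 0.72), Pdia3 and Manf fell (log2 -0.38 and -0.35), and Hspa5, the chaperone BiP, was not called. The falls numbered 6 without siCtrl_EGF replicate 3, 7 without any 1 of the siArid1a_EGF replicates and 5 without replicate 2 of both groups. Of 30 glycolysis and hypoxia genes 11 fell and 6 rose, with a median of -0.22. The carbonic anhydrase gene Car9 stood at 32.6, 28.3 and 30.0 CPM, against 76.3, 72.9 and 78.6 CPM in siCtrl_EGF (log2 -1.32 ± 0.07), and the pyruvate kinase gene Pkm2 at 435, 426 and 464 CPM, against 983, 916 and 1025 CPM (log2 -1.14 ± 0.08). Pfkm, Eno2 and Hk1 rose (log2 0.89, 0.99 and 0.39).

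Of 29 BCL2 family and death ligand genes 8 rose (27.6%) and 7 fell (24.1%), near the 23.7% and 23.2% of all genes. Their median log2 change was -0.06. Beside Tnfsf10, the effector gene Bak1 rose (log2 0.47), and the caspase gene Casp8 and the BCL2 relative Bok fell (log2 -0.65 and -0.64). Of 24 p53 genes 6 rose (25.0%) and 8 fell (33.3%), with a median of -0.0044. Trp53 itself, Rrm2b, Plk2 and Aen fell (log2 -0.32, -0.78, -0.29 and -0.30), and Cdkn1a, which encodes p21, and Mdm2 were not called. The p53 falls numbered 5 without replicate 2 of both groups. Of 28 autophagy and lysosome genes 7 rose (25.0%) and 5 fell (17.9%), with a median of 0.09. Beside the falls of Wipi1 and Atg5, the membrane transport gene Atg9a, the kinase gene Ulk2 and the lysosomal factor gene Tfe3 rose (log2 0.54, 0.77 and 0.43), and Becn1, Sqstm1 and Map1lc3b were not called. The autophagy falls numbered 3 without any 1 of 5 of the 6 libraries, the exception being siArid1a_EGF replicate 2, and without replicate 2 of both groups, and the rises 14 with the replicate block over the 6 libraries.

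The effect of the siRNAs could also be set beside that without EGF, in libraries that the 2 comparisons do not share. Of the 3164 genes higher with EGF, 2079 (65.7%) were also higher without EGF, which was 83.0% of the 2505 higher there. Of the 3097 lower with EGF, 2120 (68.5%) were lower without EGF, which was 79.0% of the 2685 lower there. Over all genes, 18.8% were called higher and 20.1% lower without EGF. Called or not, the change without EGF had the same sign for 95.8% of the genes higher with EGF and 96.1% of those lower. Genes that were called and changed more than 2-fold without EGF numbered 629 (4.71%), 377 higher (2.83%) and 252 lower (1.89%), and 247 were over 2-fold higher in both comparisons (48.7% of those with EGF and 65.5% of those without). A call higher with EGF and lower without was made for 18 genes, and the reverse for 18. The difference between the 2 effects was called for 126 genes (0.944%), 75 positive (0.562%) and 51 negative (0.382%, edgeR interaction), and exceeded 2-fold for 31 of them (0.232%), 18 positive (0.135%) and 13 negative (0.0974%). Leaving out siArid1a_EGF replicates 1 or 3, siCtrl_EGF replicates 1 or 3, siArid1a replicates 1 or 2 or siCtrl replicate 1 gave 55 to 81. Of the 51 negative differences, 14 were of genes lower with EGF and higher without, 16 were lower with EGF and not called without, 9 were higher without EGF and not called with it, 10 were lower in both and 2 higher in both. Of the 75 positive differences, 20 were higher with EGF and not called without, 18 were lower without EGF and not called with it, 15 were higher with EGF and lower without, 20 were higher in both and 2 lower in both.

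Wipi1 had the most negative difference at a mean log2 CPM over 3 (-1.62 ± 0.19, edgeR interaction, adjusted p = 0.00128). It stood at 13.4, 15.3 and 13.7 CPM in siArid1a, against 18.4 and 23.6 CPM in siCtrl, so that siCtrl_EGF, at 69.1, 57.4 and 67.5 CPM, was the 1 group of 4 with a high level. Hbegf, which encodes a ligand of the EGF receptor, stood at 33.2, 32.0 and 32.6 CPM in siArid1a_EGF, against 32.5, 35.3 and 32.7 CPM in siCtrl_EGF. Without EGF it stood at 19.6, 17.2 and 19.6 CPM in siArid1a, against 10.0 and 8.24 CPM in siCtrl (difference -1.06 ± 0.14, adjusted p = 0.00187). Its siRNA groups overlapped with EGF and were apart without. The hyaluronan synthase gene Has2 and the collagen gene Col15a1 behaved in the same way, not called with EGF (log2 0.16 and -0.10) and higher without (log2 1.27 and 0.97), and neither difference was called without siCtrl replicate 1 (adjusted p = 0.0708 and 0.091). Has2 was called with EGF in the fit of the 6 libraries with the replicate block (log2 0.17, edgeR adjusted p = 0.00226). Klf4, a factor of metaplasia, was lower with EGF and higher without (log2 -0.55 and 0.47), and Dok7, an adaptor gene, was lower with EGF (log2 -0.88 and 0.08).

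Pcdh8 had the smallest p of the positive differences (1.39 ± 0.13, edgeR interaction, adjusted p = 0.000194). It stood at 37.5, 38.5 and 36.1 CPM in siArid1a_EGF, against 16.1, 21.8 and 17.9 CPM in siCtrl_EGF, and at 91.7, 104 and 95.4 CPM in siArid1a, against 124 and 130.2 CPM in siCtrl. The siRNA groups were thus apart in opposite directions, at levels that were lower with EGF in either siRNA group. The epithelial factor gene Grhl3 and Olfml2b followed the same order (log2 0.55 and 0.31 with EGF, -0.46 and -0.78 without), although Olfml2b was not called with EGF without siArid1a_EGF replicate 1 or siCtrl_EGF replicate 3 (edgeR adjusted p = 0.0964 and 0.0751). Nptxr, Apol7a and Fam13a were higher with EGF (log2 1.05, 1.17 and 1.65), and of these Fam13a was also higher without (log2 0.61). The difference of Nptxr was not called without siCtrl_EGF replicate 1 or siCtrl replicate 1 (adjusted p = 0.0586 and 0.0752). Omp was lower without EGF alone (log2 -1.20), and Klf2 was higher with EGF alone (log2 0.82). The difference of Omp was not called without replicate 1 of any 1 of the 4 groups (adjusted p = 0.0503 to 0.0671). That of Klf2 was not called in 8 of the 11 fits that leave out 1 library (adjusted p = 0.0522 to 0.224), the exceptions being those without siCtrl_EGF replicate 2, siArid1a replicate 3 and siCtrl replicate 2, nor with RLE factors (adjusted p = 0.0544). H2-T23 and Tapbp rose by more with EGF than without (log2 1.30 and 1.16 with, 0.67 and 0.72 without, adjusted p of the difference = 0.0108 and 0.0322), of which the call for H2-T23 was lost without siCtrl replicate 1 (adjusted p = 0.0647) and that for Tapbp without siArid1a_EGF replicates 1 or 2, siCtrl_EGF replicates 1 or 3, siArid1a replicates 1 or 2 or siCtrl replicate 1 (adjusted p = 0.0678 to 0.137). No difference was called for the members of the 2 other interferon lists, nor for Arid1a (difference 0.20 ± 0.18, adjusted p = 0.846).

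**Figure D5:**
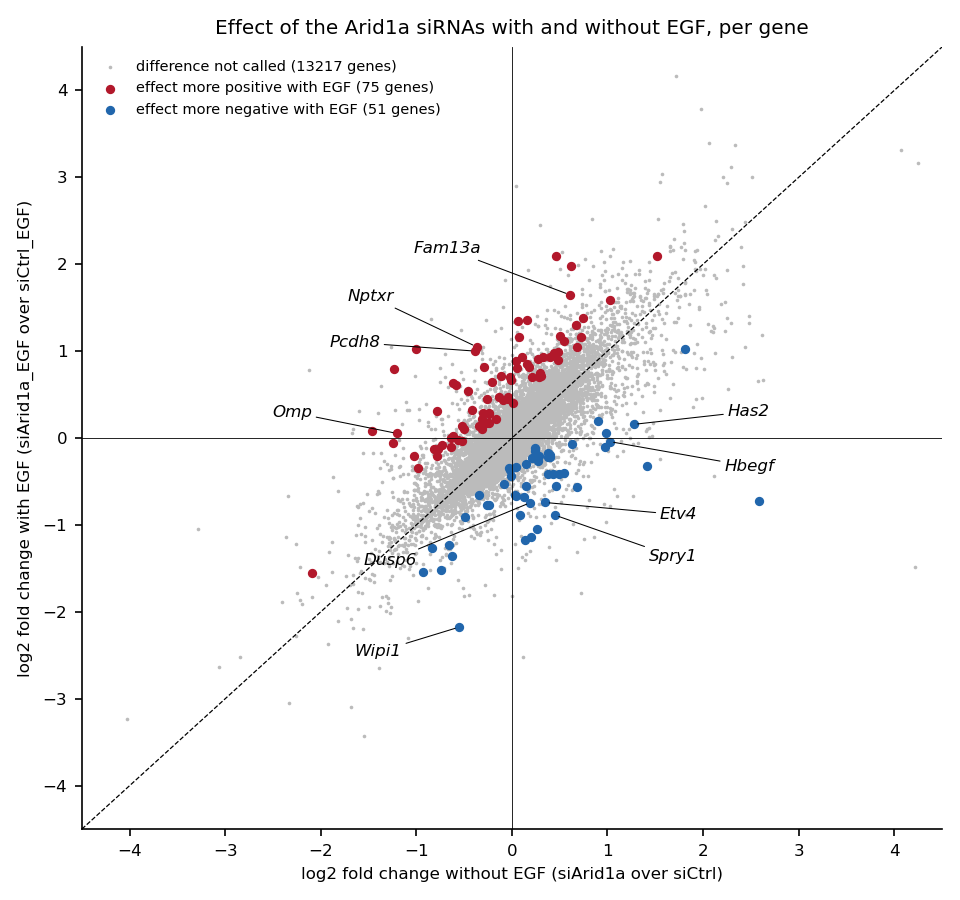
Log2 fold change of the Arid1a siRNAs over control siRNA for each of 13343 genes, with EGF (y axis) and without EGF (x axis), and the diagonal of equal effects (dashed). The 75 genes whose difference was called positive are red and the 51 called negative are blue; most genes lie near the diagonal, while Pcdh8 and Nptxr lie above it and Wipi1, Spry1, Etv4, Dusp6, Hbegf and Has2 below it.

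Among markers of other cell types, those of endothelium summed to 48.2 to 55.5 CPM in siArid1a_EGF and 38.8 to 46.7 CPM in siCtrl_EGF, mainly Tek, and Tek and Kdr were called higher (log2 0.25 and 0.69). Both calls were lost without siArid1a_EGF replicate 1, siCtrl_EGF replicate 1 or siCtrl_EGF replicate 3 (edgeR adjusted p = 0.0746 to 0.206). Fibroblast markers summed to 322 to 328 CPM in siArid1a_EGF and 305 to 335 CPM in siCtrl_EGF, nearly all of it Pdgfrb. Among the 9 tested, Col1a2 alone fell (log2 -0.78). Islet markers summed to 796 to 841 CPM in siArid1a_EGF and 1117 to 1161 CPM in siCtrl_EGF, nearly all of it the granule protein gene Chga (log2 -0.47), and Ppy and Neurod1, both under 3 CPM, fell (log2 -1.94 and -1.32), Neurod1 not called without siArid1a_EGF replicate 1. The part of these markers in the changes of the other lists was not tested.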

How the data were processed

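RNA from 266-6 cells was extracted with TRIzol and 500 ng was used for poly(A) libraries with a TruSeq v2 kit, which keeps no strand, per the labels' protocols, so reads of a gene and of an overlapping antisense gene cannot be told apart. TopHat2 2.1.1, HTSeq 0.9.1, Cuffnorm 2.2.1.2 and Cuffdiff 2.2.1.5 and the build mm9 are named in the submitters' processing notes. The deposited files hold whole-number counts per gene symbol for each library and 1 table of FPKM values by gene. The annotation and the strand setting are not given in the sources used here, and 3 FPKM columns named for the control without EGF, a group with 2 samples here, could not be matched to these and were not used. The libraries, 10279763 to 19773007 counted reads each, differed from each other by more than counting noise, with a chi-square per degree of freedom of 1.57 to 10.9 within groups.

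Counts of 13343 of 23284 genes passed edgeR's filter (a minimum count of 10 and a minimum total of 15) and were scaled by TMM. A quasi-likelihood fit of edgeR 4.0.16 (R 4.3.3) with 4 group means over the 11 libraries (7 residual degrees of freedom) gave the siRNA effect with EGF, the effect without EGF and their difference. The biological coefficient of variation was 7.00%. Calls used a Benjamini-Hochberg adjusted p under 0.05 with no minimum fold. The script was tested on simulated counts. Alternatives were RLE factors, no filter, DESeq2 1.42.0, the 6 libraries alone, the replicate number as a block, limma 3.58.1 on log2(FPKM + 0.5) or log2(FPKM + 0.1), each library left out, and, added after seeing the data, both EGF libraries numbered 2 left out. Libraries of the EGF groups with the same replicate number, which the labels give, deviated together from their group means (r = 0.13 to 0.30, against -0.19 to 0.07 for different numbers). The fit with 4 group means held no replicate term, so its p-values and calls leave this pairing out. Only the alternative with the replicate block over the 6 libraries treats the numbers as pairing these libraries. The numbers were not taken to pair libraries with and without EGF.

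The text names the 14 largest rises and 14 largest falls at an average log2 CPM of 3 or more whose libraries did not overlap, passing over clone symbols, up to 5 called members with the smallest p in each gene list, the 8 largest positive and 8 largest negative differences, and Arid1a, Arid1b, Arid2, Smarca4, Egfr, Dusp6, Nfatc1, Sox9, Krt19, Cpa1, Ptf1a, Nr5a2 and Bhlha15. Some genes under this rule are not reported here. Other genes, among them members not called, the third and later examples of a list, Cldn4, Ehf and the 4 printed promoters, were chosen after their values were seen. The members and lists were chosen with earlier results of these data known, and list counts are descriptions. Promoter windows came from RefSeq, build GRCm38.p6, matched by symbol, and no coordinates of the files' build were used.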

Additional observations from a re-analysis of the deposited data

Results flagged for a closer look

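The effect of the Arid1a siRNAs differed with and without EGF for 32 of the 324 genes named above, by edgeR's interaction term with a Benjamini-Hochberg adjusted p under 0.05. The 8 largest positive and 8 largest negative of these differences fell under a naming rule that takes called differences only. The count therefore cannot be set against the 0.944% called among all genes tested. Values are the log2 effect with EGF minus that without.

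The difference was negative for 17 of them. Among ERK feedback and ETS genes it was -1.34 for Spry1, -1.09 for Etv4, -0.94 for Dusp6, -0.79 for Etv5, -0.69 for Spry2, -0.69 for Phlda1 and -0.59 for Errfi1. Among immediate early genes it was -0.93 for Maff and -0.80 for Egr1. It was -1.06 for Hbegf, the EGF receptor ligand gene, -1.12 for Has2 and -1.08 for Col15a1. It was -1.02 for Klf4, -0.97 for Dok7, -0.60 for Stc1 and -0.45 for Aen. The largest was that of Wipi1, at -1.62.

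The difference was positive for 15. It was 1.39 for Pcdh8 and 0.83 for Pcdh15, both protocadherin genes. It was 1.42 for Nptxr, 1.25 for Omp, 1.09 for Apol7a, 1.09 for Olfml2b and 1.04 for Fam13a. Among transcription factors and their inhibitors it was 1.11 for Klf2, 1.01 for Grhl3 and 0.85 for Nrarp. It was 0.64 for Acacb, 0.53 for Fgfr2 and 0.41 for Vim, and in antigen presentation 0.63 for H2-T23 and 0.44 for Tapbp.

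Of the 32 differences, 16 were called in each of the 11 fits that leave out 1 library, and 16 were not called in at least 1. That of Fgfr2 was called in none of these fits (edgeR adjusted p = 0.0634 to 0.151), nor with RLE factors (adjusted p = 0.0545) or without the filter (adjusted p = 0.072). Those of Acacb, Aen, Stc1 and Vim were not called in 10, 9, 9 and 9 of the 11, and those of Acacb and Vim also not with RLE factors (adjusted p = 0.0572 and 0.0573). Klf2 lost the call in 8, Tapbp in 7, Etv5 in 5, Omp in 4 and Nptxr in 2. Without siCtrl replicate 1 alone, Col15a1, Errfi1, Etv4, H2-T23, Has2 and Maff were not called (adjusted p = 0.0647 to 0.091).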

How the results depend on the processing

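The count of 6261 genes called with EGF stayed within 1.5 times under every alternative run, from 4933 without replicate 2 of both EGF groups to 8362 with the replicate block over the 6 libraries, and leaving out single libraries gave 5382 to 5619 (2707 to 2936 higher, 2621 to 2750 lower). Without EGF the leave-out range was 3904 to 4946 (1905 to 2365 higher, 1999 to 2581 lower). The 126 called differences numbered 55 to 153 when single libraries were left out (30 to 92 positive, 21 to 61 negative) and 56 with the replicate block over the 11 libraries (31 positive, 25 negative), and DESeq2 gave 84 negative ones. The log2 change of Arid1a was -1.12 to -0.97 without single libraries. Of 262 named genes called with EGF, 236 were called under every alternative, and of 62 not called, 28 were called under at least 1, 26 of these with the replicate block over the 6 libraries. Across EGF status, libraries with the same number did not deviate together (r = -0.38 to 0.04 over 10 pairs). Some with different numbers did, such as siCtrl_EGF replicate 2 with siCtrl replicate 1 (r = 0.38) and siArid1a_EGF replicate 2 with siArid1a replicate 3 (r = 0.28). The 2 siCtrl libraries deviate by equal and opposite amounts, so their r values mirror each other. Whether a batch ran across the 4 groups and entered the differences was not tested. The block over all 11 libraries thus treats as shared a number that was not seen to pair them. With it, 55 of its 56 differences were among the 126, the differences of Acacb, Aen, Errfi1, Etv5, Fgfr2, Klf2, Maff, Omp, Stc1, Tapbp and Vim were not called (edgeR adjusted p = 0.052 to 0.163), and of calls with EGF those of Acly, E2f1, Kdr and Map2k2 were not made (edgeR adjusted p = 0.0512 to 0.0775) and that of Cpa1 was (edgeR adjusted p = 0.0407). Some calls with EGF also depended on the method, among them the following. Kdr was not called with DESeq2 (adjusted p = 0.121) or without the filter (edgeR adjusted p = 0.0613). Map2k2 was not called with DESeq2, RLE factors, no filter or the FPKM fits. E2f1 was not called with DESeq2 or without the filter, and Dusp10 and Herc6 not in the FPKM fits. Of 1216 list counts, 1126 were within 1.5 times. Values near 0 changed sign. Arid1b was -0.00398 with RLE factors, -0.0201 without the filter, -0.00420 with DESeq2, -0.000207, -0.000226 and -0.000207 in the FPKM fits and -0.0598 to 0.0729 in leave-outs. Smarca4 was -0.00534, -0.0214, -0.00530, -0.000445, -0.000447 and -0.000445 in the same settings and -0.00827 to 0.0141 in leave-outs. Ctrb1 was 0.00126 in the 6 libraries alone, 0.000484 with their replicate block and -0.0582 to 0.0417 in leave-outs. Leave-outs gave -0.165 to 0.0248 for Arid2, -0.0450 to 0.0460 for Cdkn1a, -0.128 to 0.0481 for Mki67 and -0.0677 to 0.235 for Omp. Without replicate 2 of both EGF groups, Hbegf was 0.0132, Maff -0.00959 and Mki67 0.00618. Syne1 was -0.0171 in FPKM without the filter. The cause of these shifts was not tested.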
